A study of Saccharomyces cerevisiae with 16 samples.

Results

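The comparison set ethanol against glucose as the limiting nutrient in chemostat cultures of the reference yeast strain SCE090 (Saccharomyces cerevisiae). It rested on 4 of the 16 arrays of the series, 2 titled ethanol limitation and 2 titled glucose limitation, and covered all 5716 probe sets of an Affymetrix yeast array. All 4 cultures were at steady state, limited by their carbon source and fed with ammonium sulfate. The other 12 arrays, 2 a group, held the mutant strain SCE088 under the same 2 limitations, and both strains grown on ethanol or glucose with ammonium sulfate limiting. Nothing in the labels names the mutated gene or the growth rates, and it is not stated whether the paired arrays are separate cultures, so that the p-values rest on a between-array spread that could be technical alone.

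Yeast can use ethanol as its only carbon source by oxidizing it to acetate and then to acetyl-CoA. Building sugars from these short carbon units requires the glyoxylate cycle, which makes larger acids from acetyl-CoA, and gluconeogenesis, which turns those acids into hexose phosphates. When glucose is plentiful, the genes of these routes are repressed, and the Snf1 protein kinase lifts that repression once glucose runs low. In a glucose-limited chemostat the residual glucose is low, so the comparison sets a scarce sugar beside a scarce non-fermentable carbon source.

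Of 5716 probe sets, 1388 (24.3%) differed between the ethanol-limited and the glucose-limited arrays at an adjusted p under 0.05, in a limma fit to log2 intensity with Benjamini-Hochberg adjustment. On ethanol 647 of them were higher (11.3% of all probe sets) and 741 were lower (13%). Counts within the gene lists below are to be read beside these shares. Most differences were small, with 1084 of the 1388 below 0.50 on the log2 scale. A difference of at least 1, which is a 2-fold change, was reached by 41 higher and 43 lower probe sets, and 9 higher and 6 lower ones reached 2. For every called probe set both ethanol-limited arrays lay on one side of both glucose-limited arrays, while over all probe sets 27.9% lay wholly above and 30.5% wholly below. The counts fell to 428 when the 4 arrays were fitted alone and to 897 without ethanol-limited replicate 1. Levels were normalized across arrays, so a difference is one of share in the RNA of a sample, and RNA per cell was not measured.

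The median log2 intensity was near 11.95 for each array, and across probe sets the 2 ethanol-limited arrays of the reference strain had a Pearson correlation of 0.988 and the 2 glucose-limited ones of 0.9872. The half-width of the 95% confidence interval of a difference was 0.166 at the median probe set. The files hold no detection calls. Of all probe sets, 5% had a mean level below 9.14, and the highest value on the 4 arrays was 15.09.

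**Figure D1:**
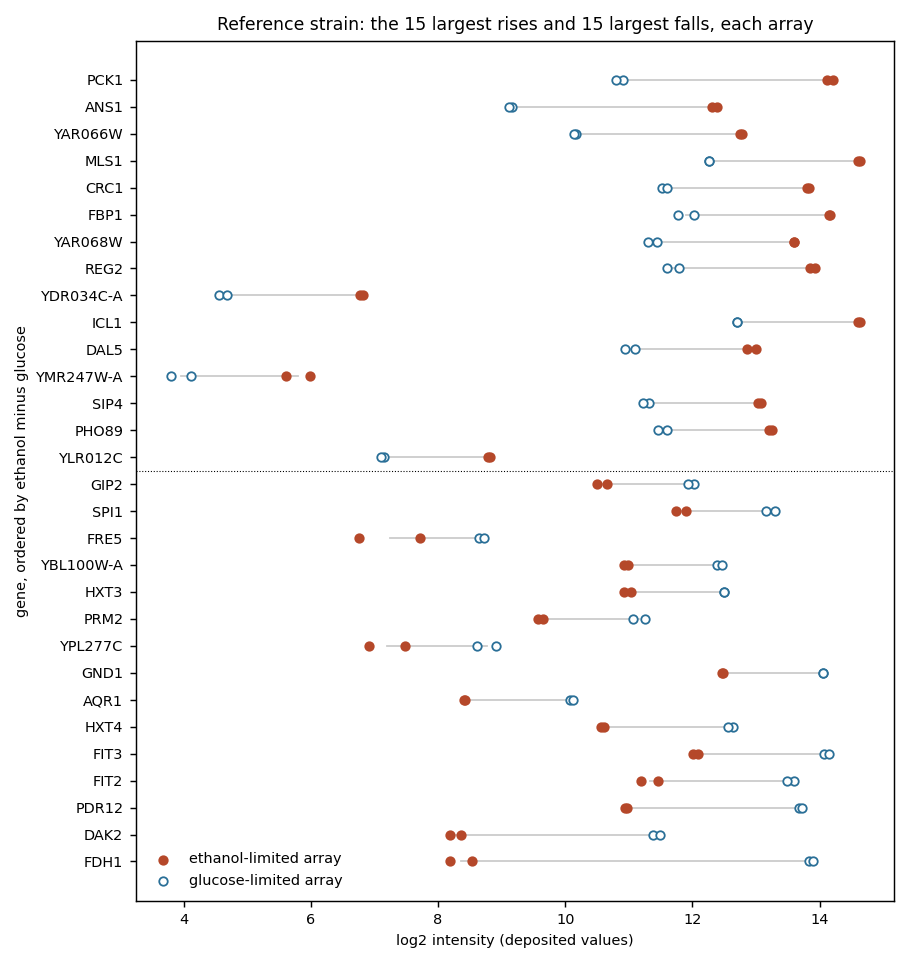
Log2 intensity on each of the 4 arrays of the reference strain (horizontal axis) for the 15 genes that rose most and the 15 that fell most, ordered down the page; filled points are ethanol-limited and open points glucose-limited arrays, and a grey line joins the 2 means. Only genes whose 2 kinds of points do not overlap were eligible. FDH1 has the widest gap (-5.50) and PCK1 the widest in the other direction (3.32). YMR247W-A, YDR034C-A, YLR012C, FRE5 and YPL277C stay below 9.14 on all 4 arrays.

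Gluconeogenesis and the glyoxylate cycle supplied several of the steepest rises on ethanol. PCK1, which encodes phosphoenolpyruvate carboxykinase, the entry step of gluconeogenesis, read 14.11 and 14.22 on the ethanol-limited arrays, against 10.91 and 10.79 on the glucose-limited arrays. This is a log2 difference of 3.32 (SE 0.08, adjusted p = 1.49e-09), or 9.96-fold. FBP1, which encodes fructose bisphosphatase, read 14.16 and 14.15 on ethanol and 11.78 and 12.03 on glucose, a difference of 2.26 (SE 0.11, adjusted p = 2.34e-07). For both enzymes the pairs of arrays lay more than 2 log2 units apart. Of 12 genes listed for gluconeogenesis 5 rose and none fell. SFC1, the succinate and fumarate carrier of mitochondria, and MDH2, the cytosolic malate dehydrogenase, rose by 1.00 and 0.84, and VID28, a subunit of the complex that marks gluconeogenic enzymes for breakdown, rose by 0.29. The other members did not pass the test, among them MAE1, the malic enzyme, with 0.28 (adjusted p = 0.419). The median of the list was 0.25, beside 0.00 over all probe sets.

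In the glyoxylate cycle 6 of 8 genes rose and none fell, with a median of 0.51. MLS1, which encodes malate synthase, read 14.61 and 14.63 on ethanol, against 12.26 on both glucose-limited arrays, and its difference of 2.36 (SE 0.03) had the smallest adjusted p of all probe sets (4.61e-11). ICL1, which encodes isocitrate lyase, read 14.63 and 14.61 on ethanol and 12.70 and 12.71 on glucose, a 3.78-fold rise (log2 difference 1.92, SE 0.04). The replicates of both genes lay almost on top of each other. MDH2 is in this list too (0.84), CIT2, the peroxisomal citrate synthase, rose by 0.69, DAL7, a second malate synthase, by 0.33 and ACO1, aconitase, by 0.13. The 2 members that did not pass were ICL2 (0.16) and IDP2 (0.23), which encode a mitochondrial relative of isocitrate lyase and the cytosolic isocitrate dehydrogenase.

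All 5 listed genes of the carnitine shuttle, which moves acetyl units into mitochondria, rose on ethanol. CRC1, the mitochondrial carnitine carrier, read 13.84 and 13.80 on ethanol and 11.52 and 11.60 on glucose (log2 difference 2.26, SE 0.04, adjusted p = 2.26e-10). The carnitine acetyltransferases YAT2, YAT1 and CAT2 rose by 1.03, 0.98 and 0.30, and AGP2, a plasma membrane carnitine transporter, by 0.78.

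Along the route that oxidizes ethanol the differences were small. Of 12 genes from ethanol to acetyl-CoA 6 rose and 1 fell, and none moved by as much as 1. ACS1 and ACS2, the acetyl-CoA synthetases, rose by 0.57 (SE 0.05) and 0.42 (SE 0.04), and ALD6, the cytosolic acetaldehyde dehydrogenase, by 0.38. ADH2, which encodes the alcohol dehydrogenase that oxidizes ethanol, read 14.73 and 14.83 on ethanol and 14.58 and 14.52 on glucose, a difference of 0.23 (SE 0.07, adjusted p = 0.0455). Its level was thus close to the highest value on these arrays under both limitations. ADH5 and ADH3 rose by 0.29 and 0.20, and ADH4 fell by 0.32. Without single arrays, or with the 4 arrays alone, between 3 and 4 of the 6 calls were left. Of the acetate and lactate transporters, ADY2 rose by 0.59 and ATO2 fell by 0.79, while JEN1 (-0.31) and ATO3 (0.22) did not pass. ADY2 lost its call without glucose-limited replicate 2 or ethanol-limited replicate 2.

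**Figure D2:**
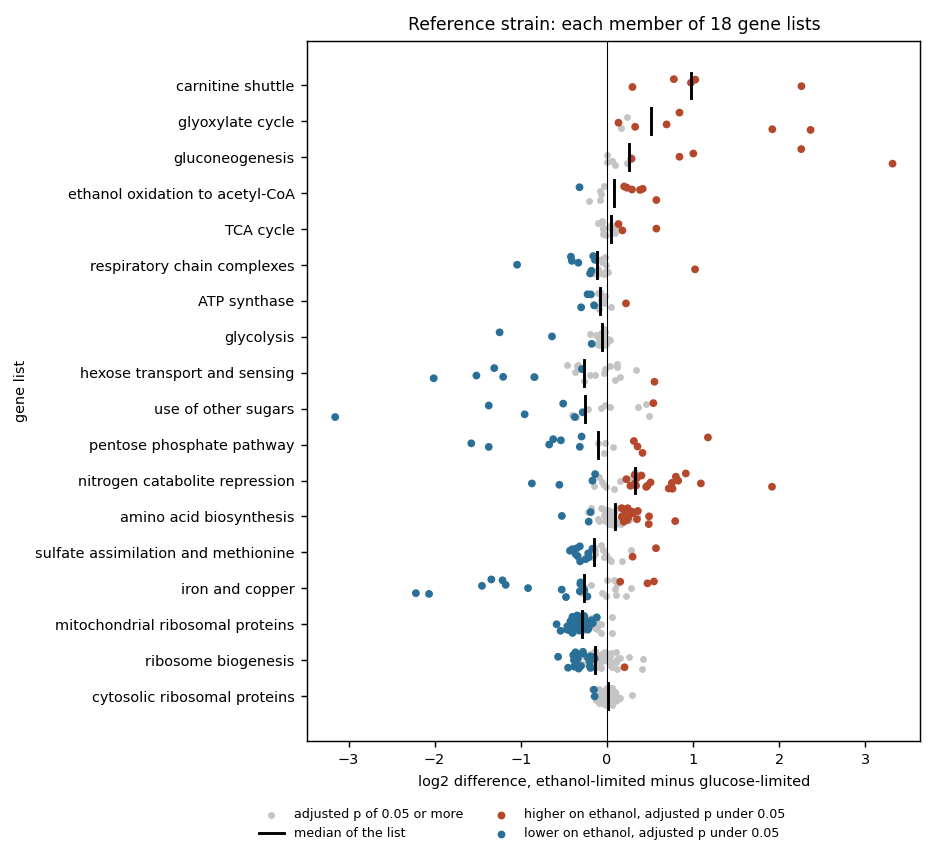
Log2 difference of each measured member of 18 gene lists, ethanol-limited minus glucose-limited arrays of the reference strain, with 1 list per line and points spread vertically so that they can be seen; red members rose and blue members fell at an adjusted p under 0.05, grey ones did not pass, and a black bar marks the median. All carnitine shuttle members are red, 51 of 73 mitochondrial ribosomal protein genes are blue, and 126 of 128 cytosolic ribosomal protein genes are grey.

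Among the activators of these pathways SIP4 alone differed by more than 1. SIP4, a zinc cluster activator that binds the promoters of gluconeogenic genes, read 13.03 and 13.07 on ethanol and 11.32 and 11.23 on glucose (log2 difference 1.78, SE 0.10, adjusted p = 7.34e-07). CAT8, the activator that controls SIP4, had a difference of -0.21 and did not pass (adjusted p = 0.0971), and ADR1, the activator of ADH2, had 0.04. RTG3, which acts in signalling from mitochondria to the nucleus, rose by 0.35. HAP5 and HAP4, subunits of the complex that activates respiratory genes, fell by 0.44 and 0.18. HAP4 passed narrowly (adjusted p = 0.049) and lost its call when any 1 of the 4 arrays was left out. In all, 2 of 15 activators rose and 2 fell, or 26.7% of the list, beside 24.3% of all probe sets.

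The Snf1 kinase and its partners changed in both directions, with 4 of 16 genes higher and 3 lower, beside 11.3% and 13% of all probe sets. REG2, a regulatory subunit of the Glc7 phosphatase, read 13.94 and 13.85 on ethanol and 11.61 and 11.79 on glucose (log2 difference 2.19, SE 0.08, adjusted p = 4.21e-08). NRG2, a repressor of glucose-repressed genes, rose by 0.88, SIP2, a beta subunit of the Snf1 kinase, by 0.61 and SNF1 itself by 0.40. MIG1, the main glucose repressor, fell by 0.49 (adjusted p = 0.0217), NRG1 by 0.27 and SNF4, the gamma subunit, by 0.14. None of these 3 falls passed with the 4 arrays alone, and 0 to 2 of them passed without single arrays.

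Few enzymes of the TCA cycle passed the test. Of 17 genes 3 rose, none fell, and the median was 0.05, with 17.6% called beside 24.3% of all probe sets. CIT3, a mitochondrial methylcitrate synthase, rose by 0.57, LSC2, a succinyl-CoA ligase subunit, by 0.18 and ACO1 by 0.13, and 1 to 3 rises were counted without single arrays. In the respiratory chain 8 of 23 genes fell and 1 rose. NDE2, one of the dehydrogenases that oxidize cytosolic NADH, read 13.97 and 13.90 on ethanol and 12.91 and 12.93 on glucose (log2 difference 1.02, SE 0.06), while its partner NDE1 fell by 0.33. CYC7 and COX5B, the isoforms of cytochrome c and of an oxidase subunit known from low oxygen, fell by 1.04 and 0.41, and CYC1, the main cytochrome c, fell by 0.42. The median of the list was -0.11, and 4 of the 17 genes of the ATP synthase fell and 1 rose. Leaving out 1 array gave 3 to 6 falls in the respiratory chain and 1 to 3 in the ATP synthase, and the 4 arrays alone gave 2 and 0. Of 20 genes of beta-oxidation and the peroxisome 7 rose and 1 fell, with ECI1, an enoyl-CoA isomerase, ANT1, the peroxisomal ATP carrier, and CTA1, the peroxisomal catalase, higher by 0.49, 0.42 and 0.39. The rises numbered 4 to 6 and the falls 0 when 1 array was left out.

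Several genes for taking up and using sugars were lower on ethanol. HXT4, a hexose transporter, read 10.56 and 10.62 on ethanol and 12.64 and 12.55 on glucose (log2 difference -2.01, SE 0.10, adjusted p = 2.55e-07). HXT3, a low-affinity transporter, read 10.93 and 11.03 on ethanol and 12.49 and 12.50 on glucose (log2 difference -1.52, SE 0.07). Both pairs of arrays were well apart. HXT1, HXT7 and HXT2 fell by 1.20, 0.84 and 0.29, and MTH1, a repressor of hexose transporter genes, fell by 1.31. HXT5, which is known from slow growth, was the only riser among the 23 genes (0.55, adjusted p = 2.87e-06), against 6 that fell. HXT1 was dim on all 4 arrays (7.24 to 8.66), and the probe set named for HXT7 can match more than 1 transcript. Among 16 genes for other sugars and related compounds 6 fell, DAK2 among them, and 1 rose. SUC2, which encodes invertase, read 12.58 and 12.52 on ethanol and 13.93 and 13.91 on glucose (log2 difference -1.37, SE 0.05), and the maltose genes MAL32, MAL11 and MAL31 fell by 0.95, 0.51 and 0.37. The probe set of MAL32 can match more than 1 transcript, and its call was lost with the 4 arrays alone. The call of MAL32 was also lost without glucose-limited replicate 1 or ethanol-limited replicate 1. Counts use the brightest probe set of a gene. For MPH2 and HXT9 the brightest can match more than 1 transcript, and it did not pass. A dimmer probe set of MPH2 rose by 0.97 and one of HXT9 fell by 0.76, and both passed. Neither of these dimmer probe sets is of the kind that can match more than 1 transcript.

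In glycolysis 3 of 20 genes fell (6 after quantile normalization, 1 with the 4 arrays alone), none rose, and the median was -0.06. PFK27, an enzyme that makes the activator of phosphofructokinase, fell by 1.25 and HXK1, a hexokinase, by 0.64, and PFK2, a phosphofructokinase subunit, by 0.18. TDH3, the glyceraldehyde phosphate dehydrogenase, read 14.98 and 15.09 on ethanol and 15.04 and 15.01 on glucose, at the upper end of the arrays. PDC1, the main pyruvate decarboxylase, differed by -0.03 (adjusted p = 0.668). In glycerol metabolism 4 of 12 genes fell, led by DAK2 and by GPP2, a glycerol phosphatase (-0.91).

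The list for the pentose phosphate pathway changed in both directions, with 7 of 15 genes lower and 4 higher. It also holds YEF1 and GOR1, which are not enzymes of the pathway, and both fell. GND1, which encodes phosphogluconate dehydrogenase, read 12.47 and 12.48 on ethanol and 14.05 on both glucose-limited arrays (log2 difference -1.57, SE 0.03, adjusted p = 4.55e-10). Its partners in the oxidative branch, SOL3, the lactonase, and ZWF1, glucose phosphate dehydrogenase, fell by 0.67 and 0.53. YEF1, an NADH kinase, fell by 1.37, GOR1, a glyoxylate reductase, by 0.62, TAL1, transaldolase, by 0.31 and TKL1, transketolase, by 0.29. RKI1, the isomerase that joins the branches, moved the other way, with 13.59 and 13.68 on ethanol and 12.50 and 12.43 on glucose (log2 difference 1.17, SE 0.05). The paralogs NQM1, SOL4 and SOL1 rose by 0.41, 0.35 and 0.31, while GND2 (-0.02) and TKL2 (-0.03) did not pass. Leaving out single arrays kept the count of falls at 7.

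The widest gap of the comparison was that of FDH1, which encodes formate dehydrogenase. It read 8.19 and 8.53 on ethanol and 13.84 and 13.89 on glucose, a log2 difference of -5.50 (SE 0.24, adjusted p = 1.34e-07), or 45.3-fold lower on ethanol. The ethanol values lay below the level of 95% of probe sets. DAK2, a dihydroxyacetone kinase, read 8.36 and 8.20 on ethanol and 11.38 and 11.49 on glucose (log2 difference -3.15, SE 0.14), while its paralog DAK1 differed by 0.03. PDR12, the plasma membrane exporter of weak organic acids, read 10.98 and 10.93 on ethanol and 13.68 and 13.72 on glucose (log2 difference -2.74, SE 0.05). AQR1, a multidrug transporter, and SPI1, a cell wall protein linked to weak acid resistance, fell by 1.68 and 1.41.

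Genes under nitrogen catabolite repression, which are held down while a preferred nitrogen source is plentiful, were mostly higher on ethanol. Of 32 genes 19 rose and 4 fell, and the median was 0.33. DAL5, the allantoate permease, read 12.86 and 12.99 on ethanol and 11.09 and 10.93 on glucose (log2 difference 1.92, SE 0.06, adjusted p = 2.16e-08). DAL1 and DAL3, which encode allantoin-degrading enzymes, rose by 1.09 and 0.92. AGP1, a broad amino acid permease, went against the list with a fall of 0.87. Of further members, chosen after their values were seen, the ammonium permeases MEP2, MEP3 and MEP1 rose by 0.80, 0.51 and 0.47, and GLT1 and GLN1, which assimilate ammonium, by 0.75 and 0.32. With the 4 arrays alone 14 were higher and 2 lower, and without single arrays 16 to 18 were higher. The list holds genes of ammonium uptake and assimilation as well as of poor nitrogen sources.

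Amino acid biosynthesis showed 16 rises and 3 falls among 60 genes, with a median of 0.09. ARG1, argininosuccinate synthetase, read 14.07 and 14.05 on ethanol and 13.27 and 13.26 on glucose (log2 difference 0.79, SE 0.03), and BAT2, an aminotransferase of branched-chain amino acids, and ASN1, an asparagine synthetase, each rose by 0.49. With the 4 arrays alone there were 3 rises and 1 fall. In sulfate assimilation and methionine synthesis 11 of 27 genes fell and 2 rose, with CYS3, MET3 and MET8 lower by 0.43, 0.40 and 0.36 and STR3, cystathionine beta-lyase, higher by 0.57. The 4 arrays alone gave 4 falls and 0 rises in this list. The 19 amino acid permease genes were split evenly, 6 higher and 6 lower. TAT2, the tryptophan permease, fell by 1.01 and ALP1, a permease related to those of basic amino acids, by 0.84, while TAT1, AGP3 and DIP5 rose by 0.75, 0.69 and 0.59. In vitamin synthesis the neighbours SNZ1 and SNO1 of pyridoxine metabolism rose by 1.17 and 1.18, and their relatives SNZ3 and SNO3, read by probe sets that can match more than 1 transcript, fell by 0.42 and 0.38.

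Many iron uptake genes were lower on ethanol. Cells short of iron turn on a regulon for reductases, siderophore carriers and cell wall proteins that hold iron. Of 29 genes listed for iron and copper 14 fell and 3 rose, with a median of -0.26. FIT2, a cell wall mannoprotein that retains siderophore iron, read 11.19 and 11.46 on ethanol and 13.60 and 13.49 on glucose (log2 difference -2.22, SE 0.12, adjusted p = 5.39e-07). FIT3, of the same family, read 12.01 and 12.09 on ethanol and 14.08 and 14.15 on glucose (log2 difference -2.07, SE 0.06). ARN1, a siderophore carrier, fell by 1.34. FRE5, a putative ferric reductase, fell by 1.45 from a dim signal with replicates far apart on ethanol (7.71 and 6.76, against 8.65 and 8.73 on glucose), and lost its call without glucose-limited replicate 2 or ethanol-limited replicate 2.
Further members were chosen after their values were seen. TIS11, which speeds the decay of messages for iron-rich proteins, SIT1, a siderophore carrier, and FET3, the ferroxidase of high-affinity uptake, fell by 1.21, 1.18 and 0.92, and the permease FTR1 by 0.31. ENB1, FRE4 and FRE1 were the 3 that rose (0.55, 0.47 and 0.15), and copper transporters CTR1 and CTR3 fell by 0.26 and 0.31. Between 11 and 14 of the falls passed without single arrays, and 8 passed with the 4 arrays alone, while of the 3 rises 1 passed in each case.

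**Figure D3:**
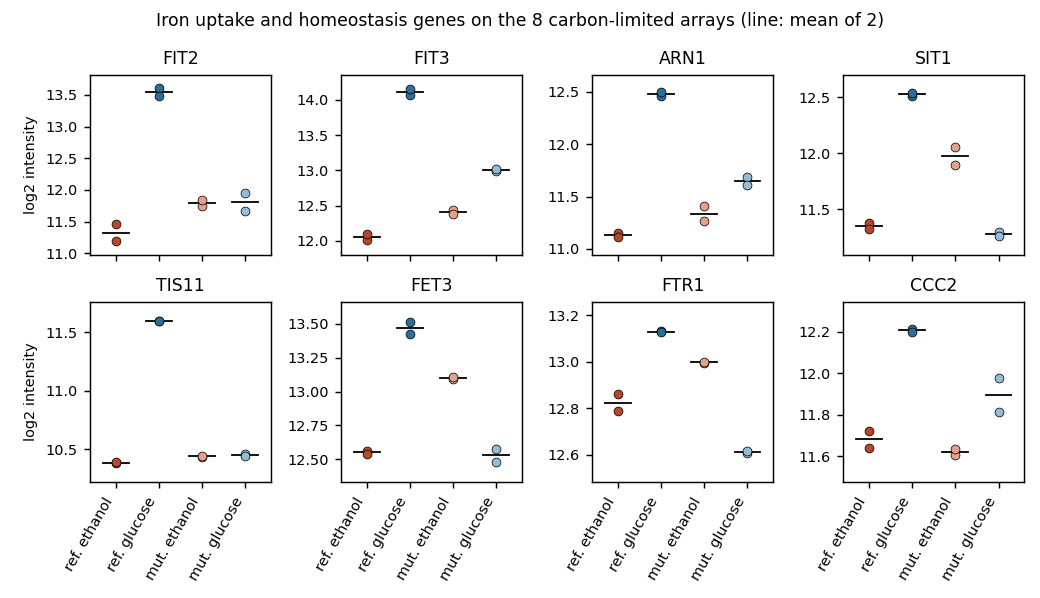
Log2 intensity of 8 iron genes (1 panel each, each with its own vertical axis) on the 8 carbon-limited arrays, with the reference strain on ethanol and glucose and then the mutant strain on ethanol and glucose from left to right; points are arrays and lines their means. In all 8 panels the 2 reference strain arrays on limiting glucose are the highest, and TIS11 is near 10.4 in the other 3 groups. The 8 genes are part of a list of 29, and some were chosen after their values were seen. The risers ENB1, FRE4 and FRE1 are not shown, so the shared fall on ethanol in the reference strain follows in part from the choice.

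In the mutant strain the iron genes differed in another way between the carbon sources. FIT2 read 11.75 and 11.84 on ethanol and 11.66 and 11.95 on glucose in the mutant strain, a difference of -0.01, and the strain term, the reference difference minus the mutant difference, was -2.21 (adjusted p = 1.8e-05). SIT1 and FET3 had differences of -1.18 and -0.92 in the reference strain and of 0.70 and 0.57 in the mutant strain, and the strains differed by -1.88 and -1.48. Within the mutant strain 4 of the 29 listed genes rose and 6 fell, beside 16.2% and 15.7% of all probe sets. The median of the list there was 0.04. Over the list of 29 genes the strain term was called negative for 12 and positive for 2. Of all probe sets, 10.2% were called negative and 11.1% positive. Since the mutated gene is not named, the groups that carry it cannot be tied to a function here.

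Mitochondrial ribosomal protein genes were lower on ethanol as a group, each by a small amount. Of 73 genes 51 fell and none rose, the median was -0.29, and 71 of the 73 had a negative difference. The median level of the list was 11.97 and 12.04 on the ethanol-limited arrays and 12.31 on both glucose-limited arrays. MRPS8 and MRPL7, proteins of the small and the large subunit, fell by 0.58 (SE 0.05) and 0.46 (SE 0.06), and MRPL17 and MNP1 fell by 0.54 and 0.46. The count was 5 when only the 4 arrays were fitted and 30 to 44 without single arrays. In the mutant strain the same list had 6 rises, no falls and a median of 0.06, while 16.2% of all probe sets rose and 15.7% fell. The strain term was called negative for 45 of the 73, beside 10.2% of all probe sets.
Genes of ribosome biogenesis in the nucleolus followed with 21 falls and 1 rise among 88 (median -0.13), beside 13% and 11.3% of all probe sets. The falls were led by RRP8, which modifies ribosomal RNA (-0.57), and UTP5, a processing factor (-0.45). Without single arrays 11 to 15 of these falls were counted, and 5 with the 4 arrays alone. The mutant strain had 45 rises and no falls among these genes, beside 16.2% and 15.7% of all probe sets. The strain term was called negative for 40 of them, beside 10.2% of all probe sets. Only 2 of 128 cytosolic ribosomal protein genes passed, RPL36A (-0.15) and RPS9A (-0.14), and RPS9A lost its call in 9 of its alternatives.

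**Figure D4:**
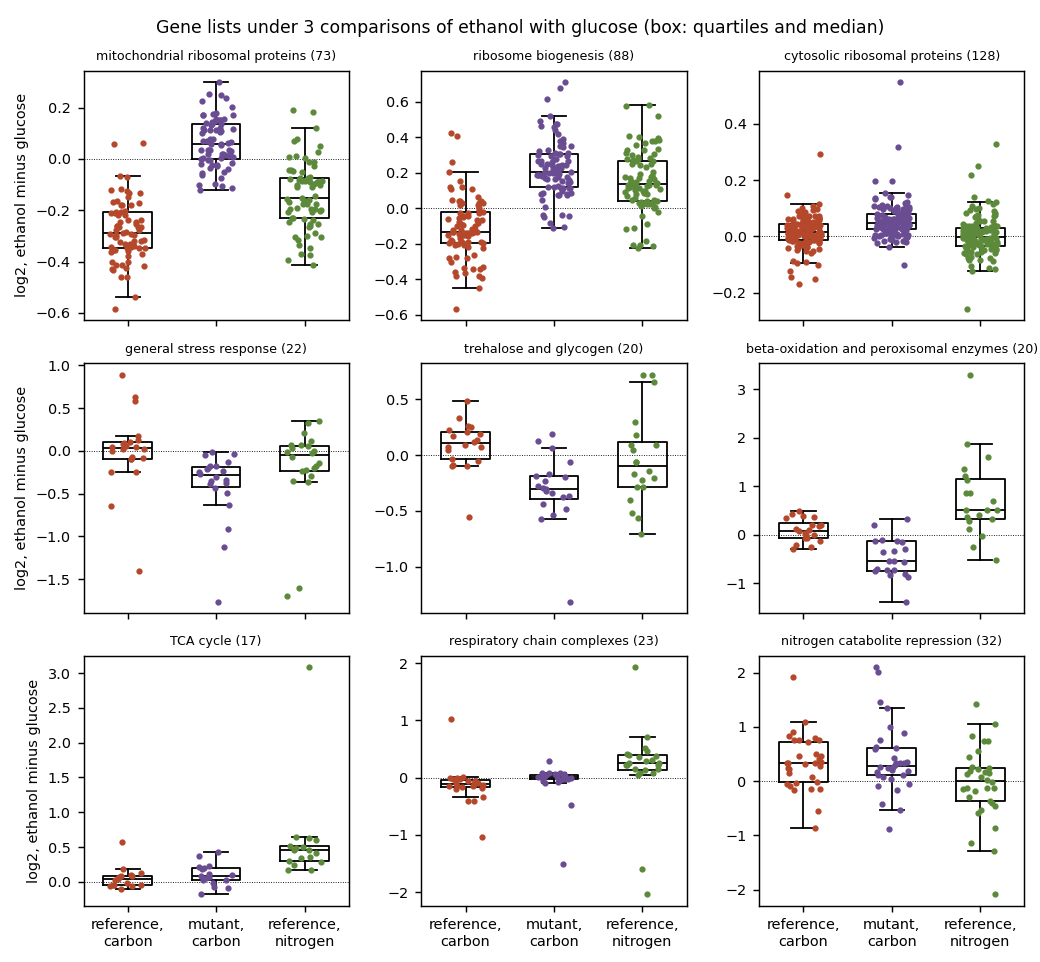
Log2 difference of ethanol minus glucose for each member of 9 gene lists (number of genes in brackets) in the reference strain under carbon limitation, the mutant strain under carbon limitation and the reference strain under nitrogen limitation, from left to right in each panel; boxes give quartiles and median, whiskers reach at most 1.5 box lengths, and points are genes. The mitochondrial ribosomal protein list has medians of -0.29, 0.06 and -0.15, and the TCA cycle list lies near 0 in both carbon-limited comparisons and at 0.46 under nitrogen limitation.

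Storage carbohydrate genes were higher in part, and stress genes were split. Of 20 genes of trehalose and glycogen 8 rose and 1 fell, the largest being PIG2, a putative regulator of glycogen synthase, with 0.49, and GPH1, glycogen phosphorylase, with -0.55. The 8 rises became 3 to 6 without single arrays and 1 with the 4 arrays alone. Of 22 stress genes 4 rose and 4 fell, beside 11.3% and 13% of all probe sets, with a median of 0.03. CTT1, the cytosolic catalase, read 12.73 and 12.69 on ethanol and 11.87 and 11.77 on glucose (log2 difference 0.89, SE 0.04), TSA2, a peroxiredoxin, rose by 0.63 and SSA4, a heat shock protein, by 0.59, whereas the stress activator MSN4 fell by 0.64. Of 23 autophagy and vacuolar protease genes 8 rose and none fell, with ATG7, ATG1 and ATG14 higher by 0.72, 0.59 and 0.52, and 3 to 5 passed without single arrays. Among 18 sporulation genes 3 rose and 2 fell, beside 11.3% and 13% of all probe sets. IME2, a meiosis kinase, DMC1, a recombinase, and SPS100, a spore wall protein, rose by 1.08, 1.01 and 0.89. SPR28 and SPO11 fell by 1.00 and 0.36. The list was dim, with median levels between 9.21 and 9.44 on the 4 arrays. IME2 lost its call without glucose-limited replicate 1 or ethanol-limited replicate 1.

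Several of the largest differences belonged to genes outside these groups. ANS1 read 12.30 and 12.39 on ethanol and 9.16 and 9.12 on glucose, a difference of 3.21 (SE 0.08), the second largest rise. PHO89, a sodium and phosphate cotransporter, read 13.21 and 13.26 on ethanol and 11.60 and 11.46 on glucose (log2 difference 1.70), while PHO84, the high-affinity phosphate transporter, fell by 0.51 and lost its call when any 1 of the 4 arrays was left out. The neighbours YAR066W and YAR068W rose by 2.61 and 2.23. The probe set of YAR066W can match more than 1 transcript. PRM2, a membrane protein known from the pheromone response, fell by 1.56, GIP2, a partner of the Glc7 phosphatase, by 1.39, and YBL100W-A, read by a probe set of the shared kind, by 1.47. YPL277C fell by 1.57 and 1.10 on its 2 probe sets. YDR034C-A and YMR247W-A rose by 2.18 and 1.85 from very low levels (4.56 to 6.81 and 3.79 to 5.99), and the call of YDR034C-A was lost in the same way.
Among the 77 genes called with a difference of at least 1, 7 pairs were direct neighbours on a chromosome in the RefSeq annotation, and the 2 genes of each pair moved the same way. They were YAR066W with YAR068W, YDR222W with CRF1 (1.52 and 1.11), GND1 with SSP1 (-1.57 and -1.12), YLL053C with AQY2 (-1.11 and -1.24), SNO1 with SNZ1, and FIT2 with FIT3 and FIT3 with FRE5. The pairs hold 13 genes, with FIT3 in 2 of them. They were sought after the values were seen. How often neighbours move together over all genes was not counted, so the 7 pairs have no share beside them.

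The same carbon sources were compared in the mutant strain. It had 1821 called probe sets (31.9%), and 501 of the 1388 called in the reference strain were called in the mutant strain in the same direction. The difference between the strains was itself called for 1215 probe sets (21.3%), 632 with a positive and 583 with a negative strain term. Several genes of ethanol use did not pass this test. PCK1 had differences of 3.32 in the reference strain and 3.22 in the mutant strain, and a strain term of 0.10 (95% confidence interval -0.16 to 0.36, adjusted p = 0.595). MLS1 and CRC1 had strain terms of -0.10 and -0.04, which did not pass. SIP4 was a member that did differ, with 1.78 in the reference strain and 0.98 in the mutant strain (strain term 0.80, adjusted p = 0.00316). FDH1, which is not a gene of ethanol use, had a strain term of -0.60 that did not pass, with a wide interval (95% confidence interval -1.35 to 0.15).
Other genes went in opposite directions. CTT1 had 0.89 in the reference strain and -1.12 in the mutant strain, and FAT3 had 0.46 and -2.30. In the list of 22 stress genes no mutant difference was above 0, 17 fell in the mutant strain (15.7% of all probe sets did), and the strain term was called positive for 15. Of the 20 beta-oxidation and peroxisome genes, 15 fell in the mutant strain and 13 had a strain term called positive. Over all probe sets, 15.7% fell in the mutant strain and 11.1% had a strain term called positive. PHO84 had -0.51 in the reference strain and 1.91 in the mutant strain, and the aquaporin gene AQY2 had -1.24 and 0.73.

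Under nitrogen limitation the same strain showed another set of differences between ethanol and glucose, with 1921 called probe sets (33.6%), and 550 of the 1388 were called in the same direction. The 2 differences share no array. Their difference, carbon minus nitrogen limitation, was called for 1398 probe sets (24.5%), positive for 598 and negative for 800. PCK1 had 3.32 under carbon limitation and 3.99 under nitrogen limitation. SFC1 had 1.00 and 4.97, YAT1 0.98 and 2.98, and SIP4 1.78 and 3.85, so the direction was shared and the size was not. MLS1 ran the other way in size, with 2.36 under carbon limitation and 0.67 under nitrogen limitation, where glucose left it at 13.91 and 13.94.
ADH2 read 14.58 and 14.52 when glucose was limiting and 9.73 and 9.59 when nitrogen was limiting on glucose, and its ethanol minus glucose difference was 0.23 under carbon limitation and 4.87 under nitrogen limitation. ADY2, an acetate transporter, had 0.59 and 5.72, and RGI2, a gene induced in respiratory growth, had -0.01 and 5.98. All 17 TCA cycle genes rose on ethanol under nitrogen limitation, against 3 under carbon limitation, beside 17.7% and 11.3% of all probe sets. The difference between the limitations was called negative for 15 of them, beside 14% of all probe sets. FDH1 was high on the glucose-limited arrays alone within the reference strain, since it read 8.09 and 8.29 on ethanol and 7.31 and 8.22 on glucose under nitrogen limitation. HXT1 had differences of -1.20 under carbon limitation and -6.35 under nitrogen limitation, where it read 6.87 and 7.04 on ethanol and 13.25 and 13.36 on glucose.

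**Figure D5:**
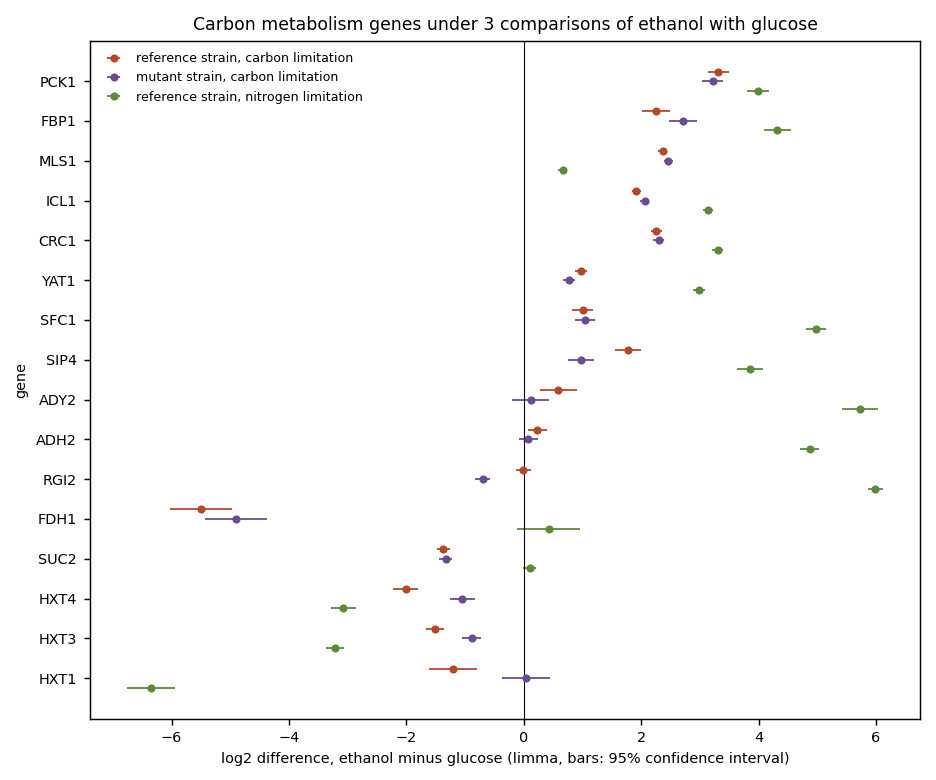
Log2 difference of ethanol minus glucose for 16 carbon metabolism genes, with 95% confidence intervals from limma, in the reference strain under carbon limitation (red), the mutant strain under carbon limitation (purple) and the reference strain under nitrogen limitation (green). PCK1, MLS1 and CRC1 have almost the same value in both strains under carbon limitation, while ADY2, ADH2 and RGI2 are near 0 or below 1 under carbon limitation and above 4 under nitrogen limitation, and FDH1 is far below 0 under carbon limitation alone.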

How the data were processed

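The authors deposited 1 intensity per probe set and array, normalized across arrays with GCRMA according to their processing notes. The step back from log to linear values is described nowhere in the labels or methods read here. The lowest intensity was 1 (5 values), and no values were left out. Log2 intensities of all 16 arrays (8 groups of 2, no block) were fitted with limma 3.58.1 in R 4.3.3, with Benjamini-Hochberg adjustment over 5716 probe sets and a threshold of 0.05. Contrasts were ethanol minus glucose, and its difference between strains and between limitations. Groups came from the array titles. The code was tested on simulated data. Probe sets were named from the platform annotation (5498 with 1 symbol, 218 with none, 12 symbols updated through RefSeq). Of the listed names, 20 have no probe set here. A listed gene with several probe sets is given by its brightest. Named genes are the 15 largest rises and falls with non-overlapping arrays, the 4 largest changes of each of 42 lists, further members of lists of at most 25 genes, and the 5 largest interactions in each direction. Others are stated to be chosen later. Members and lists were chosen with earlier results of these data known.
Alternatives changed the normalization, centring, dim filter, offset, moderation, arrays fitted, size threshold and replicate block, or left out 1 array. With 2 arrays a group, their number limits the precision.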

Additional observations from a re-analysis of the deposited data

Results flagged for a closer look

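The difference between ethanol and glucose under carbon limitation was itself different between the reference and the mutant strain for 1215 probe sets in limma's interaction test. The strain term is the reference difference minus the mutant difference, and its 5 largest positive values were those of FAT3 (2.76), CRF1, a corepressor of ribosomal protein genes (2.27), SPG1, a gene needed in stationary phase (2.04), CTT1, the cytosolic catalase (2.01), and CIS1 (1.92). FAT3 read 12.83 and 12.69 on ethanol and 12.22 and 12.37 on glucose in the reference strain, and 10.50 and 10.66 on ethanol and 12.89 and 12.88 on glucose in the mutant strain. The mutant strain on ethanol was thus the low group. At the other end were AQY2, an aquaporin (-1.97), the iron genes FRE5 (-2.20) and FIT2 (-2.21), the pheromone gene MF(ALPHA)2 (-2.28) and the phosphate transporter PHO84 (-2.42). The call of MF(ALPHA)2 was lost when any 1 of the 8 arrays concerned was left out.

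Within the reference strain the difference changed between carbon and nitrogen limitation for 1398 probe sets. Here the term is the difference under carbon limitation minus that under nitrogen limitation. It was largest for HXT1, a hexose transporter (5.14), ADH7, an alcohol dehydrogenase (4.40), FCY21, a putative purine and cytosine permease (3.44), RSB1, a membrane protein that moves sphingoid bases (3.41), and YDR034C-A (2.91), which was dim and lost its call without nitrogen-limited glucose replicate 1 or nitrogen-limited ethanol replicate 2. The term was lowest for RGI2 (-5.99), FDH1 (-5.92), the acetate transporter ADY2 (-5.13), ADH2 (-4.64) and CSM4, a meiosis gene (-4.24). The causes of these differences were not tested.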

How the results depend on the processing

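For the ethanol minus glucose difference, 1388 calls became 831 with brighter probe sets only (2858 tested), 428 with the 4 arrays alone, 84 with a log2 difference of at least 1, and 897 to 1028 without single arrays, lowest without ethanol-limited replicate 1. The strain test gave 1215 calls, against 727 with brighter probe sets, 95 with a difference of at least 1 and 816 to 988 without single arrays. The limitation test gave 1398, against 812, 191, 858 with only its own arrays, and 1109 to 1405. Quantile normalization, median centring, an offset and another moderation left each count within 1.5 times. Leaving out 1 array leaves a lone array that is assumed to vary like the other groups. Of 1809 recomputed values for named genes 1661 kept direction and call, 148 lost the call and 0 reversed. The array titles and descriptions number the glucose-limited reference arrays in opposite order, and with 2 numbers a pairing is not established. By title numbers, the correlation of replicate differences across probe sets was -0.682, -0.586 and -0.354 between the glucose-limited and the other 3 reference groups, and 0.423 to 0.655 among those 3, so that all 6 are positive in the order of the descriptions. Among mutant groups it was 0.023 to 0.294. A replicate block by title gave 1339, 1144 and 1372 calls, and the crossed block by description 1539, 1375 and 1582. Dim genes have no detection call, so that their fold changes are the least certain.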
